A study of Mus musculus with 9 samples.

Results

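The 10 genes described here code for transporters that bring amino acids, iron and glucose into a T cell and carry lactate across its membrane, and for enzymes that set the rate of glycolysis or end it in lactate. They are Slc7a5, Slc3a2, Tfrc, Slc2a1, Slc2a3, Slc16a1, Hk2, Pfkp, Pfkfb3 and Ldha, and they were chosen by name: every probe set of the array that its annotation gives to 1 gene symbol, a member of this list, was taken. All 10 genes were found, of 18193 genes measured, with 24 of the 45101 probe sets. The brightest probe set, by its mean over all arrays, stands for each gene, and the others are given beside it.

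A resting T cell takes up little and lives largely on respiration. On activation through its receptor it grows, turns on the transcription factors MYC and HIF-1, and places more transporters on its surface: SLC7A5 pairs with the SLC3A2 heavy chain (CD98) to import large neutral amino acids such as leucine, TFRC takes up iron bound to transferrin, and SLC2A1 and SLC2A3 (GLUT1 and GLUT3) let glucose in. Glucose is trapped by hexokinase, committed to glycolysis by phosphofructokinase, and in activated T cells largely turned into lactate, which leaves through monocarboxylate transporters.

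The samples were T cells of C57BL/6 mice, all kept in culture for 24 h. The syngeneic group was kept with dendritic cells of its own strain and the allogeneic group with dendritic cells of BALB/c mice, at 20 T cells per dendritic cell. The anti-CD3/CD28 group was stimulated by anti-CD3e and anti-CD28 antibodies (0.1 µg/ml), with no dendritic cells named for it. The T cells of all groups were then purified on magnetic columns by negative selection with beads against CD11c, exposed to ultraviolet A light (400 mJ/cm2 as the first dose) and lysed, and RNA bound to Argonaute (AGO), the protein that carries microRNAs, was immunoprecipitated, amplified and hybridised to 1 array per sample. There were 3 arrays per group, numbered as biological replicates 1 to 3 in each. Neither the age of the mice nor what a shared number stands for is given, so p-values measure the spread between these arrays, which may be technical. Values are log2 signals of AGO-bound RNA. Arrays of input RNA were not analysed here, so the amount of a transcript and the share of it on AGO are not separated, and in such bulk samples fewer cells of a type and less RNA per cell cannot be told apart.

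Arrays with the same number were alike: after removal of group means, their deviations correlated at 0.811 to 0.921 across genes, and array medians ran from 4.58 to 4.59 in number 1, 5.60 to 5.67 in number 2 and 4.81 to 4.93 in number 3. Differences are therefore given within each number, in the order 1, 2 and 3. The antibody and allogeneic arrays differed least in number 1: the SD of their differences over genes was 0.103, against 0.493 in number 2 and 0.680 in number 3. Some values were identical to the last digit in 2 arrays of a number, 29.1% of such pairs over all genes and 4 of the 90 pairs over the 10 genes (Slc3a2 in all 3 arrays of number 1, Slc2a3 in the syngeneic and allogeneic arrays of number 1). These counts are of the brightest probe sets, and other sets of the 10 genes held identical pairs as well. A difference of exactly 0 is such a pair. How identical values arose is not stated, and they are not known to be separate measurements, which touches each mean that holds a 0. The arrays carried T cell markers: 12 of 13 measured T cell genes lay above the array median on every array, Cd3e, Cd4 and Cd8a among them. These markers differed between cultures as well: 12 of the 13 had a mean difference above 0 for antibodies against syngeneic culture (medians of −0.07, 0.57 and 0.45 within numbers 1, 2 and 3), and 9 of 13 for allogeneic culture (−0.06, 0.11 and 0.11). Of all 18193 genes, 8832 had a mean above 0 for antibodies and 10185 for allogeneic culture. In allogeneic minus antibody culture all 13 had a mean below 0, with medians of 0.00, −0.57 and −0.14. Of all genes 6375 had a mean below 0 there. The part of the T cell marker differences in those of the 10 genes was not tested. All 10 brightest probe sets of the described genes lay above the array median on all 9 arrays. For probe sets, here and below, that median is over all 45101 probe sets, and for marker lists it is over the 18193 genes. Probe sets differ in how well they bind, so levels are not compared between genes.

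The promoters are shown first, since MYC, which drives many of these genes in activated T cells, binds the E-box CACGTG and since Myc RNA itself is reported below. RefSeq promoter entries (build GRCm38.p6) were matched for 8 of the 10 genes, with 11 start sites, all but Slc7a5 and Slc2a3. In the 250 bases before the start, CACGTG was found on 3 of these 11 sites, against 6.02% of 32851 promoter windows of the same length. They belong to Ldha, with 2 matches, Slc16a1 and Pfkfb3. Each is printed 5′ to 3′ on the strand of the gene, with the E-box in capitals. The Ldha window is chr7:46845554-46845803 on the plus strand, that of Slc16a1 is chr3:104638414-104638663 on the plus strand, and that of Pfkfb3 is chr2:11502091-11502340 on the minus strand, before 1 of its 2 listed starts.
Ldha: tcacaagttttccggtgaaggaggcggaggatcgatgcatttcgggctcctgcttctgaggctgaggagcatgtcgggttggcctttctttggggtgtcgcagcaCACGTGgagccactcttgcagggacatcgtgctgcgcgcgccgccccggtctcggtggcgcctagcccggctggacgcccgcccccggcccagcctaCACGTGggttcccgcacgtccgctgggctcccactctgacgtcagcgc
Slc16a1: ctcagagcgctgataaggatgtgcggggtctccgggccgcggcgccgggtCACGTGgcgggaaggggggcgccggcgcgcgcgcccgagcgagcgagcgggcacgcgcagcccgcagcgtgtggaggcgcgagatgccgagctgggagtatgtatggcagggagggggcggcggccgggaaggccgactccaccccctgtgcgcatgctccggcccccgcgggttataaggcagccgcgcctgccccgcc
Pfkfb3: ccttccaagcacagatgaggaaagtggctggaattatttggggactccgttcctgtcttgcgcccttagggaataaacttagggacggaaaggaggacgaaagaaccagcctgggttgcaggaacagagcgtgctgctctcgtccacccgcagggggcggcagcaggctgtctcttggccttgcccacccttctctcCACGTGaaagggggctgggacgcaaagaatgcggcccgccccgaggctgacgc
The motif reads the same on both strands. In Ldha its first bases lay 145 and 48 bases before the start, in Slc16a1 200 and in Pfkfb3 53 bases before it. The shorter cores of the hypoxia response element were searched on both strands as well. ACGTG, which also lies inside every CACGTG, was found on 8 of the 11 sites, against 16.6% of all windows, and GCGTG on 7 of the 11, against 28.2%. The windows were not matched for base composition, and a match in these letters shows no binding.

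Across the 10 genes the arrays of stimulated T cells mostly stood higher than those of syngeneic culture, more evenly so with antibodies than with allogeneic dendritic cells. Between anti-CD3/CD28 and syngeneic culture, 6 of the 10 genes were higher in all 3 numbers (Slc7a5, Tfrc, Slc2a1, Slc16a1, Pfkp and Ldha), where 7.8% of all genes were, and 1 was lower in all 3 (Pfkfb3), where 9.15% were. The share of all genes higher in all 3 was 25.4% under quantile normalization and 44.7% under median centring, with the same 6 genes in the count. As deposited, the share was 10.5% among genes above the 40th percentile of mean signal, where all 10 genes lie. The median log2 difference of the 10 genes was 0.58, against 0.00 for all genes and −0.02 for those above that percentile. Between allogeneic and syngeneic culture, 3 were higher in all 3 numbers (Slc7a5, Tfrc and Pfkp), where 7.29% of all genes were, and 1 lower (Pfkfb3), where 7.96% were. Among genes above the 40th percentile the share higher in all 3 was 9.48%. The median difference of the 10 genes was 0.26, against 0.03 for all genes and 0.00 for those above that percentile. Under quantile normalization and median centring 4 and 2 of the 10 were higher in all 3 numbers, where 19.1% and 10.8% of all genes were. As deposited, Tfrc was higher by only 0.004 in number 2 and Pfkp by 0.02 in number 1. On the deposited scale, here and below, a gene with identical values in a number cannot count as higher or lower in all 3. Quantile normalization and median centring change each array on its own, so identical pairs can become unequal and count there. Such pairs were more frequent over all genes than over the 10. These 2 comparisons share the syngeneic arrays, so their values are given side by side and not as 2 pieces of evidence.

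**Figure D1:**
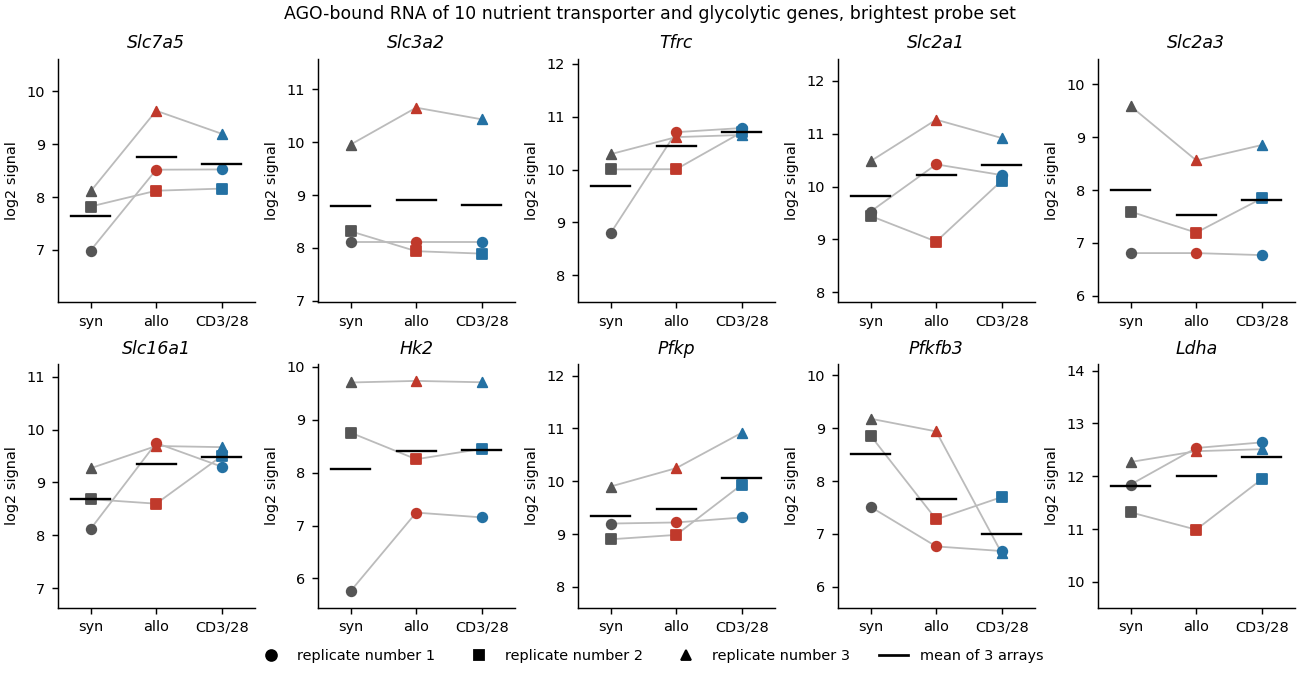
Log2 signal of the brightest probe set of each of the 10 genes on the 9 arrays, by culture (syn, syngeneic; allo, allogeneic; CD3/28, antibodies). Symbols mark the replicate number, grey lines join arrays of 1 number, black bars are means of 3 arrays, and every panel spans the same range; in Slc7a5 all stimulated arrays lie above the syngeneic array of their number, and in Pfkfb3 all lie below it.

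In the test over all genes no call was made. limma (1 mean per group, Benjamini-Hochberg adjustment over 18193 genes) called 0 of the 10 genes and 0% of all genes in each of the 3 comparisons, with an adjusted p of 1 for each of the 10, and the same count with replicate number as a block. At an unadjusted p under 0.05 it listed 0 of the 10 between allogeneic and syngeneic culture, where 0.033% of all genes were listed as higher and 0.115% as lower, and 1 (Tfrc) between anti-CD3/CD28 and syngeneic culture, where 0.0824% were listed as higher and 0.775% as lower. With the block, 1 (Slc7a5) and 3 (Slc7a5 and Pfkp higher, Pfkfb3 lower) were listed in those comparisons, against 2.33% of all genes listed as higher and 2.21% as lower in the first, and 2.23% as higher and 4.56% as lower in the second. An exact permutation test of 3 arrays against 3 cannot give a two-sided p under 0.10. A test that flips the signs of the 3 within-number differences cannot give one under 0.25. The differences below are thus descriptions of these 9 arrays, each with limma's SE without the block. That SE also holds the offsets between numbers, and its median over all genes was 0.639, against 0.156 with the block.

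Number 2 set the comparisons apart. Within number 1 the allogeneic array was higher than the syngeneic one in 7 of the 10 genes, within number 3 in 8, and within number 2 in 3, with medians of 0.79, 0.34 and −0.35. The antibody array was higher in 7, 7 and 8 of the 10 genes in numbers 1, 2 and 3, with medians of 0.74, 0.48 and 0.38. Of all genes 32.2%, 49.7% and 37.7% were higher in the allogeneic array of numbers 1, 2 and 3. The corresponding shares for the antibody array were 32.9%, 42.2% and 34.3%. With number 1, 2 or 3 left out, 3, 7 and 3 of the 10 genes were higher in both remaining allogeneic arrays, where 18.7%, 15.5% and 15.8% of all genes were.

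The amino acid transporter Slc7a5 (probe set 1418326_at, its only one) stood at 6.99, 7.82 and 8.11 in syngeneic culture. It stood at 8.52, 8.12 and 9.63 in allogeneic culture and at 8.52, 8.16 and 9.20 with antibodies. All 6 stimulated arrays lay above all 3 syngeneic ones, narrowly so in number 2 (8.12 and 8.16 against at most 8.11). Groups that do not overlap in this direction were found in 0.192% of all genes for the allogeneic and 0.412% for the antibody comparison. Here and below, non-overlap compares arrays across numbers, whose medians differ, and it was not examined on centred arrays. The log2 difference was 1.12 ± 0.61 (SE), or 2.17-fold, for allogeneic against syngeneic culture, with 1.53, 0.30 and 1.53 within the numbers. For antibodies it was 0.99 ± 0.61 (1.53, 0.34 and 1.09). Adjusted p with the replicate block was 0.709 and 0.727.

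Its heavy chain Slc3a2 (1425364_a_at), without which SLC7A5 does not reach the surface, showed no such pattern. It stood at 8.11, 8.32 and 9.96 in syngeneic, 8.11, 7.94 and 10.66 in allogeneic and 8.11, 7.89 and 10.43 in antibody culture. Both stimulated arrays of number 2 lay under the syngeneic one and both of number 3 above it. The mean differences were 0.11 ± 0.88 and 0.02 ± 0.88. The partners of this transporter thus differed side by side as 1.12 for Slc7a5 and 0.11 for Slc3a2 in allogeneic culture, and the gap between the genes was not tested.

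Tfrc, the transferrin receptor, had the most probe sets of the 10 genes, 6, of which 3 are the array maker's control sets for the 5′ end, the middle and the 3′ end of the transcript. The brightest (1452661_at) stood at 8.80, 10.003 and 10.29 in syngeneic, 10.71, 10.01 and 10.61 in allogeneic and 10.79, 10.71 and 10.65 in antibody culture. The antibody arrays lay above every syngeneic array, while the allogeneic array of number 2 was level with its syngeneic partner. The difference was 1.02 ± 0.46 for antibodies (1.99, 0.70 and 0.36) and 0.75 ± 0.46 for allogeneic culture (1.91, 0.00 and 0.32).

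All 6 probe sets of Tfrc were higher than in syngeneic culture in every number and in both stimulated cultures. Their mean differences ran from 0.71 to 1.74 in allogeneic and from 1.02 to 2.06 in antibody culture, so the brightest set gave the smallest antibody difference. The control sets of the 5′ end, the middle and the 3′ end differed within number 3 by 1.37, 1.44 and 1.58 for allogeneic culture and by 1.89, 1.81 and 2.21 for antibodies. In number 1 the set of the middle differed by 0.19 in both, against 1.85 for the 3′ set in allogeneic culture. The middle set had the same value, 5.65, in the allogeneic and antibody arrays of number 1. These probe sets read the same RNA and are no separate replicates.

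**Figure D2:**
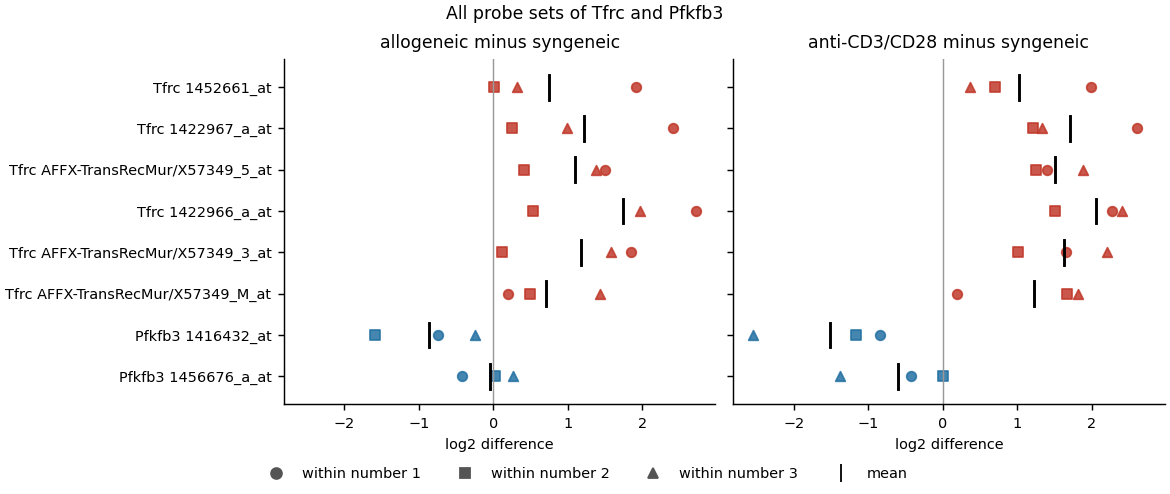
Log2 differences of all 6 probe sets of Tfrc (red) and both of Pfkfb3 (blue) within each replicate number, with black bars for the mean of 3 numbers. Every red point lies above 0 in both comparisons, while the second Pfkfb3 set lies at or near 0 in number 2.

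Among the glucose carriers, Slc2a1 and Slc2a3 had mean differences of opposite sign. Slc2a1 (1426599_a_at), the carrier induced on T cell activation, stood at 9.53, 9.44 and 10.48 in syngeneic, 10.42, 8.96 and 11.27 in allogeneic and 10.22, 10.11 and 10.92 in antibody culture. Every antibody array was above the syngeneic array of its number, by 0.69, 0.67 and 0.44, a mean of 0.60 ± 0.58. The allogeneic differences were 0.89, −0.48 and 0.78, a mean of 0.40 ± 0.58. A second set (1434773_a_at) gave 0.26, −0.05 and 0.31 for antibodies, and the third (1426600_at) gave 0.03, 0.31 and −0.07, so the even antibody difference rests on 1 of 3 probe sets.

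Slc2a3 (1455898_x_at), the high-affinity carrier, stood at 6.81, 7.59 and 9.59 in syngeneic, 6.81, 7.19 and 8.56 in allogeneic and 6.77, 7.84 and 8.85 in antibody culture. In number 3 both stimulated arrays were below the syngeneic one, with differences of −1.03 and −0.74, and the mean differences were −0.47 ± 0.83 and −0.18 ± 0.83. A second set (1437052_s_at) was lower in allogeneic culture in all 3 numbers (−0.97, −0.50 and −0.77). The other 2 sets were dim, at or under the array median on 3 and 5 arrays.

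Slc16a1 (1415802_at), the monocarboxylate transporter MCT1, stood at 8.12, 8.68 and 9.27 in syngeneic, 9.75, 8.60 and 9.69 in allogeneic and 9.30, 9.50 and 9.67 in antibody culture. The antibody arrays all lay above all syngeneic arrays, with a difference of 0.80 ± 0.53 (1.18, 0.82 and 0.40). The allogeneic difference was 0.65 ± 0.53 (1.63, −0.09 and 0.42). Its other probe set (1446274_at) did not exceed the median of any of the 9 arrays.

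Of the enzymes at the head of glycolysis, Hk2 (1422612_at), the hexokinase that traps glucose in activated cells, differed mainly in number 1. It stood at 5.76, 8.76 and 9.71 in syngeneic, 7.24, 8.25 and 9.74 in allogeneic and 7.15, 8.45 and 9.71 in antibody culture. Both stimulated arrays of number 1 were higher by 1.49 and 1.40, both of number 2 were lower, and those of number 3 differed by at most 0.03. Without number 1 the mean differences turned from 0.34 to −0.24 in allogeneic and from 0.36 to −0.15 in antibody culture.

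Pfkp (1416069_at), the platelet-type subunit of phosphofructokinase, stood highest with antibodies. It stood at 9.20, 8.90 and 9.90 in syngeneic and 9.22, 8.98 and 10.25 in allogeneic culture, close to level. With antibodies it stood at 9.31, 9.94 and 10.92, the highest array of each number. The antibody difference was 0.72 ± 0.56 (0.11, 1.03 and 1.02) and the allogeneic one 0.15 ± 0.56 (0.02, 0.08 and 0.35). Set directly against each other, allogeneic culture differed from antibodies by −0.57 ± 0.56 (−0.09, −0.95 and −0.67). A second set (1430634_a_at) was higher in all 3 numbers in both cultures, by 0.63, 0.53 and 0.71 and by 0.63, 1.41 and 1.59. The third (1437759_at) gave 0.72, −0.15 and −0.35 in allogeneic and 0.72, 0.00 and 0.75 in antibody culture, so it did not keep 1 direction in the former. In number 1 the second and the third set each had the same value in the allogeneic and antibody arrays, 5.79 and 5.30.

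Pfkfb3 (1416432_at) makes fructose 2,6-bisphosphate, the activator of phosphofructokinase, and was the 1 gene of the 10 that stood lower in every stimulated array than in the syngeneic array of its number. Its signals were 7.51, 8.86 and 9.18 in syngeneic, 6.76, 7.27 and 8.94 in allogeneic and 6.68, 7.70 and 6.63 in antibody culture. The groups overlapped, since syngeneic number 1 lay under allogeneic number 3 and antibody number 2. The difference was −1.52 ± 0.73 for antibodies (−0.84, −1.16 and −2.55) and −0.86 ± 0.73 for allogeneic culture (−0.75, −1.59 and −0.24). The second probe set (1456676_a_at) did not share this pattern. It gave −0.43, 0.00 and −1.37 for antibodies, a mean of −0.60, and −0.43, 0.02 and 0.26 for allogeneic culture, a mean of −0.05, so it was higher in 2 of 3 allogeneic arrays. Its allogeneic and antibody values of number 1 were the same, 6.80.

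Some markers of other cells also stood lower in stimulated culture, macrophage and monocyte markers most evenly. The 13 measured macrophage and monocyte markers had median differences of −0.42, −1.29 and −2.87 for antibodies and −0.34, −0.84 and −1.14 for allogeneic culture in numbers 1, 2 and 3, and all 13 had a mean below 0 in both. Of all 18193 genes, 8592 had a mean below 0 for antibodies and 7587 for allogeneic culture. The mean log2 signal of these markers ran from 6.28 to 7.03 in syngeneic, 5.01 to 5.65 in allogeneic and 4.24 to 5.54 in antibody culture, with C1qa and Itgam never above the array median. The 13 dendritic cell markers had medians of −0.09, −0.66 and −1.18 for antibodies and 0.00, −0.38 and 0.00 for allogeneic culture. Their mean signal ran from 7.36 to 8.65, 7.39 to 8.57 and 6.80 to 7.28 in syngeneic, allogeneic and antibody culture, with Xcr1 at or under the median throughout. The 8 stromal markers had allogeneic and antibody medians of −1.73 and −2.07 in number 2, against 0.00 in numbers 1 and 3. The median differences of the other lists were, in allogeneic and antibody culture −0.30 and −0.08 for 8 B cell markers, 0.03 and −0.15 for 9 granulocyte markers, −0.04 and 0.00 for 5 NK cell markers and 0.06 and 0.03 for 6 erythroid markers. The part of these cells in the differences of Pfkfb3 or of any other gene here was not tested.

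Ldha (1419737_a_at, its only probe set), the lactate dehydrogenase subunit favoured by glycolytic cells, stood at 11.84, 11.32 and 12.27 in syngeneic, 12.54, 10.99 and 12.47 in allogeneic and 12.64, 11.95 and 12.51 in antibody culture. Each antibody array was above its syngeneic partner, with a mean of 0.56 ± 0.42 (0.80, 0.63 and 0.24). The allogeneic differences were 0.69, −0.33 and 0.20, a mean of 0.19 ± 0.42. Ldhb, which codes for the other subunit, was lower in all 3 numbers in both cultures, with differences of −0.86, −1.69 and −0.44 in allogeneic and −0.90, −0.41 and −1.20 in antibody culture.

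**Figure D3:**
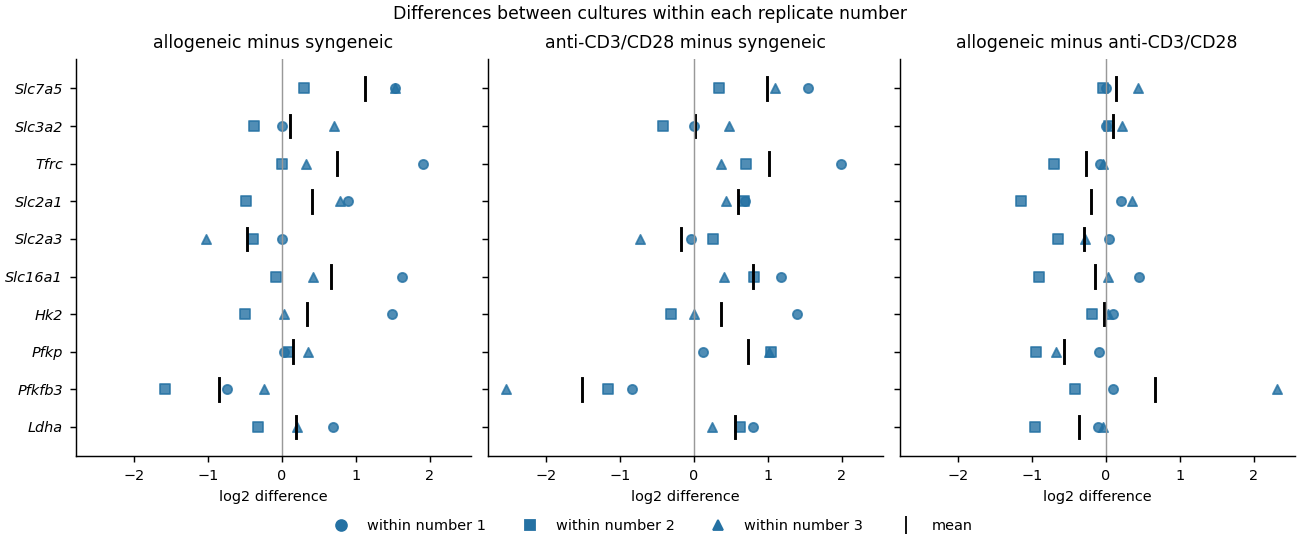
Log2 differences of the 10 genes between cultures within replicate numbers 1, 2 and 3, with black bars for the mean. In the middle panel 6 genes have all 3 points above 0 and Pfkfb3 has all 3 below it, and in the right panel 9 of the 10 squares, the number 2 differences, lie below 0.

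Allogeneic culture and antibodies were also compared directly. No gene of the 10 was higher with allogeneic dendritic cells in all 3 numbers, where 4.39% of all genes were, and 3 were lower (Tfrc, Pfkp and Ldha), where 2.58% were. Within number 2 the allogeneic array was lower in 9 of the 10 genes, with a median of −0.67, the exception being Slc3a2, where 31.4% of all genes were lower. The median of the T cell markers in that number was −0.57. In number 1 it was higher in 5 and equal in 1, where 24.3% of all genes were higher, and in number 3 higher in 6, where 43.1% were, with medians of 0.02 in each. Pfkfb3 in number 3 was the widest gap, 8.94 against 6.63. Of the 10 genes 0 had groups that do not overlap, where 0.269% of all genes did with allogeneic culture higher and 0.055% with it lower. limma called 0 of the 10. At an unadjusted p under 0.05 it listed 0 without the block, where 0.126% of all genes were listed as higher and 0.0055% as lower. With the block it listed 1 (Pfkp, lower), where 0.792% were listed as higher and 0.335% as lower.

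Other genes of the same pathways were described from 5 lists with 89 measured genes: glycolytic enzymes, amino acid transporters, sugar and monocarboxylate carriers, iron uptake and storage, and regulators. limma called 0 of the 89 in each comparison, with or without the block. At an unadjusted p under 0.05 it listed 1 between allogeneic and syngeneic culture and 2 between antibody and syngeneic culture, all lower, where 0.115% and 0.775% of all genes were. With the block it listed 3 higher and 6 lower in the first, where 2.33% and 2.21% of all genes were. In the second it listed 4 higher and 8 lower, where 2.23% and 4.56% were. In allogeneic culture 6 of the 89 were higher in all 3 numbers and 9 lower, where 7.29% and 7.96% of all genes were. In antibody culture 12 were higher and 9 lower, where 7.8% and 9.15% were. Their median differences were 0.03 and −0.07, against 0.26 and 0.58 for the 10 genes. The 21 other glycolytic enzymes had medians of 0.04 and 0.02, the 16 other amino acid transporters 0.01 and 0.16, the 11 other carriers −0.09 and −0.30, the 12 iron genes 0.02 and −0.29, and the 29 regulators 0.09 and −0.11.

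**Figure D4:**
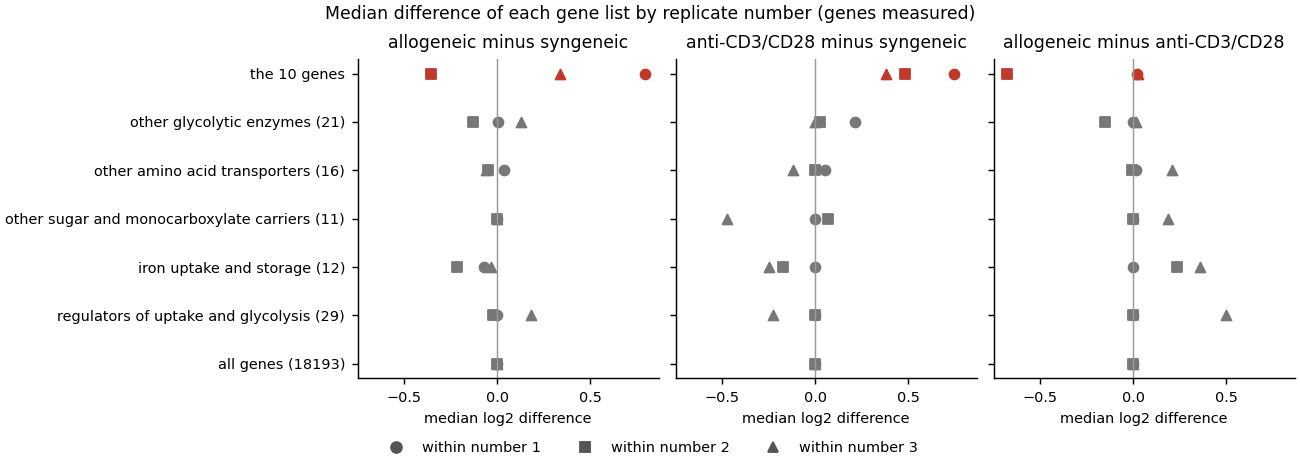
Median log2 difference of the 10 genes (red) and of 5 pathway lists and all genes (grey) within each replicate number, in 3 comparisons. The medians of all genes lie at 0 in every number, and the 10 genes lie at 0.74, 0.48 and 0.38 in the middle panel.

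Bsg, the chaperone that carries SLC16A1 to the membrane, was higher in all 3 numbers in both cultures. It stood at 7.91, 8.40 and 9.82 in syngeneic, 9.08, 8.89 and 11.03 in allogeneic and 9.21, 8.74 and 10.38 in antibody culture. Its list of 11 other carriers did not share this direction. In allogeneic culture 5 had a mean above 0 and 6 below it, and with antibodies 3 and 8. Of the 11, 1 and 2 were higher in all 3 numbers, where 7.29% and 7.8% of all genes were. Myc stood at 9.16, 9.96 and 11.11 in syngeneic, 9.99, 9.86 and 12.18 in allogeneic and 9.98, 10.81 and 12.15 in antibody culture. It was thus higher in every number with antibodies (0.90 ± 0.72) and in 2 of 3 with allogeneic cells (0.59 ± 0.72), number 2 again being the exception. Hif1a differed by −0.16 ± 0.66 and −0.11 ± 0.66. Txnip, a brake on glucose uptake, differed by 0.22 ± 0.68 and 0.21 ± 0.68, and the glutamine carrier Slc1a5 by 0.06 ± 0.72 and 0.22 ± 0.72.

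Aco1 and Fth1, beside Tfrc in iron handling, stood lower. Aco1, whose protein serves as iron regulatory protein 1 and binds the Tfrc and ferritin messages when iron is short, stood at 8.08, 8.28 and 7.70 in syngeneic culture. It stood at 6.57, 5.25 and 7.10 in allogeneic and 6.61, 6.83 and 5.95 in antibody culture, below every syngeneic array. Groups that do not overlap in this direction were found in 0.451% and 1.52% of all genes. The differences were −1.72 ± 0.65 and −1.56 ± 0.65. Fth1, the ferritin heavy chain that stores iron, was lower in all 3 numbers, with differences of −0.51, −0.23 and −0.15 in allogeneic and −0.65, −0.74 and −0.53 in antibody culture. The cystine carrier Slc7a11 was low in antibody culture, at 4.15, 2.98 and 3.56 against 4.07, 6.24 and 6.49, and number 1 did not share that difference.

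Markers of T cell stimulation were uneven as well. Of 10 measured, 4 were higher in all 3 numbers in allogeneic and 4 in antibody culture, where 7.29% and 7.8% of all genes were. Their medians were 0.91, −0.17 and 0.52 and 0.84, −0.17 and −0.02 within numbers 1, 2 and 3. The allogeneic medians of these markers and of the 10 genes were both below 0 in number 2 and above it in numbers 1 and 3. In antibody culture they parted: the 10 genes had medians of 0.74, 0.48 and 0.38, while these markers were below 0 in numbers 2 and 3. The genes whose pattern over the 9 arrays was most like the mean of the 10, after subtraction of each number's mean, were Ahcy (Pearson r = 0.991), Cyp51 (0.985), Asf1b (0.984), Ddx1 (0.982) and Mrps18b (0.981), of 10906 candidates. That mean does not stand for each of the 10 genes. Against the mean of the others, r was 0.14 for Slc3a2, −0.06 for Slc2a3, 0.23 for Pfkp and −0.36 for Pfkfb3. For the rest it ran from 0.61 (Slc7a5) to 0.91 (Slc2a1). All points of these correlations share the same 9 arrays, and the values are a description.

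The count of the 10 genes higher than syngeneic culture in all 3 numbers held under each scaling with antibodies. In allogeneic culture it changed with scaling, and the share of all genes changed in both. With antibodies the same 6 genes were higher under the deposited scale, quantile normalization, median centring and the mean of all probe sets, with 11.3% of all genes so placed under the last. Median centring moved the median of all genes in that comparison to 0.11. In allogeneic culture 3, 4, 2 and 4 of the 10 were higher, with Tfrc leaving the count under median centring.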

How the data were processed

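Values are log2 signals per probe set, deposited by the authors and made with RMA (robust multi-array average), per the submitters' processing notes. The sources used here name no software version and no grouping of arrays for RMA. The table (45101 probe sets, 9 arrays) was used as deposited. Control probe sets (64), 932 probe sets with several genes and 9160 with none were left out of the gene table, and 34945 probe sets gave 18193 genes, named by the platform annotation with symbols updated through gene IDs. The control sets of Tfrc were kept for its own description. The test was limma 3.58.1 (R 4.3.3; lmFit and eBayes with an intensity trend, 3 group means, all 9 arrays, adjusted p under 0.05). Over all genes the SE had a median of 0.639 log2 units, and of 0.156 under the replicate block. Arrays of the same number were treated as partners, since all 9 pairs of the same number correlated at 0.811 or more. What a shared number stands for is not given, so this does not show whether the likeness is biological or technical. The number of arrays limits precision. The test was checked on simulated data. The simulated log2 differences were larger than the mean differences of the 10 genes, and no values were identical. The check thus does not cover differences of the size seen here or identical values. The 10 genes, the pathway and marker lists and the tests were chosen with earlier results of these data known. By rule, all 10 genes are named, up to 3 genes of a pathway list with the smallest p in a comparison, Myc, Hif1a, Slc1a5 and Txnip, and the 5 genes most alike in pattern, of which those bearing on the 10 genes are given. Alternatives were the block, scalings, a filter on dim genes (40th percentile), the mean of all probe sets, eBayes without trend, and leaving out single arrays or all arrays of a number.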

Additional observations from a re-analysis of the deposited data

How the results depend on the processing

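Over 19 alternatives, 30 differences (10 genes in 3 comparisons) gave 570 values, of which 522 kept their sign and 48, in 17 differences, did not. limma called 0 of the 10 genes in each, with a smallest adjusted p of 0.285. The count of 0 genes called over the whole table became 1 under median centring in the allogeneic and in the antibody comparison with syngeneic culture, and 1 under the replicate block with centring in the latter, each time Csf1r. The replicate block called 0 genes. By construction the block, the filter on dim genes and eBayes without trend left every mean difference as it was. So did leaving out an array of the culture not compared, and the mean of all probe sets for genes with 1 such set. Those values could not change sign, so the count that kept it is no measure of stability. The following are log2 differences.

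Without number 1, allogeneic minus syngeneic became −0.24 for Hk2 and −0.062 for Ldha, and antibody minus syngeneic −0.15 for Hk2. Without number 3, allogeneic minus syngeneic became −0.19 for Slc3a2, and antibody minus syngeneic −0.21 for Slc3a2 and 0.11 for Slc2a3. In allogeneic minus antibody, leaving out number 2 gave 0.28 for Slc2a1, 0.24 for Slc16a1 and 0.058 for Hk2, and leaving out number 3 gave −0.022 for Slc7a5 and −0.17 for Pfkfb3. Median centring, with or without the replicate block, gave −0.015 for Slc7a5 and −0.056 for Slc3a2 there.

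Leaving out 1 array unbalances the numbers by construction. Allogeneic minus syngeneic then ran from −0.77 to 0.69 for Slc3a2, −0.13 to 1.03 for Slc2a1, −1.07 to 0.32 for Slc2a3, −0.82 to 1.15 for Hk2, −0.23 to 0.43 for Pfkp and −0.078 to 0.69 for Ldha. Antibody minus syngeneic ran from −0.79 to 0.60 for Slc3a2, −0.77 to 0.62 for Slc2a3 and −0.79 to 1.18 for Hk2. Allogeneic minus antibody ran from −0.31 to 0.45 for Slc7a5, −0.79 to 0.90 for Slc3a2, −0.73 to 0.43 for Slc2a1, −0.83 to 0.22 for Slc2a3, −0.34 to 0.23 for Slc16a1, −0.69 to 0.61 for Hk2 and −0.63 to 0.14 for Ldha. The cause of the other changes of sign was not tested. No alternative turned Slc7a5, Tfrc, Slc16a1 or Pfkfb3 against syngeneic culture.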
